A study of Mus musculus with 12 samples.

Results

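The genes described here act in the control of growth and developmental timing in the embryo. They are Hmga2 and Hmga1, Lin28a and Lin28b, Trim71, Igf2bp1, Igf2bp2 and Igf2bp3, Mycn and Dnmt3b. These 10 genes were chosen by name for their known roles, with earlier hindlimb and forelimb results of the same arrays in view, so their limb differences are a description and support nothing further. Every probe set annotated to exactly 1 of them was taken. This gave 24 probe sets of 8 genes, out of 18194 genes named on the arrays, with 16 of the 22690 on the A design and 8 of the 22575 on the B design of the Affymetrix MOE430 set. Hmga1 and Igf2bp2 had no probe set under this rule and were not analysed here.

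RNA was taken at stage E12.5 from wild-type mouse autopods, the parts of the limb that form hand and foot. The labels give the same embryonic day for both limbs. Whether the limbs were equally mature on that day was not tested, and limb and maturity cannot be told apart here. There were 3 hindlimb samples, numbered 12, 14 and 26, and 3 forelimb samples, numbered 11, 13 and 25, each on 1 A array and 1 B array. On the A array, the tissue label of forelimb 11 leaves out the limb, and a letter in its title put it in the forelimb group. Whether a sample was 1 embryo or a pool is not stated, and each p-value therefore speaks only of the spread among these 6 samples.

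The let-7 microRNAs are scarce in early embryos and accumulate as tissues mature. The Lin28 proteins bind let-7 precursors and block their processing, and let-7 in turn represses Hmga2, the Lin28 genes, Trim71, Igf2bp1 and Mycn, among others. Hmga2 itself is a chromatin protein that bends AT-rich DNA. Mice without it are small, and its level falls late in gestation in many tissues. MicroRNAs were not measured on these arrays, and no let-7 level is inferred below.

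The let-7 sequences are shown because the seed, which pairs with target messages, defines the family that most of these genes share as a regulator. In RefSeq on GRCm38.p6, 13 of 1738 mature mouse entries, under 11 names, carried the seed GAGGUAG at bases 2 to 8. Capitals mark the seed in 5 of them.
let-7a-5p, chr13:48538239-48538260, strand -: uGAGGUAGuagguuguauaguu
let-7d-5p, chr13:48536078-48536099, strand -: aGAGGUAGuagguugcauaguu
let-7g-5p, chr9:106178846-106178867, strand +: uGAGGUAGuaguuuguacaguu
let-7i-5p, chr10:122985698-122985719, strand -: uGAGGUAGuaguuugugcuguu
miR-98-5p, chrX:151913229-151913250, strand +: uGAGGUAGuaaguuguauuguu
The 5 share the seed and differ only after it or in the first base. Lin28 proteins are known to bind a GGAG motif in the loop side of the precursor. The letters GGAG lay between the arms in 8 of 11 let-7 and Mir98 hairpins, and capitals mark them in the hairpin of let-7g.
let-7g hairpin, chr9:106178840-106178927, strand +: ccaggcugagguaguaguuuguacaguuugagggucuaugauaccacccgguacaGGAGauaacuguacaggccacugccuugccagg

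The signals are MAS5.0 values, brought on every array to a trimmed mean of 500. A probe set was tested where it reached 100 on at least 3 of the 6 arrays of its design. By this filter 19 member probe sets of 6 genes were tested, 13 of them on A arrays and 6 on B arrays. Differences are log2 hindlimb minus forelimb of signal plus 32, so the change of a dim probe set is understated. Values follow the samples in the order hindlimb 12, 14 and 26, then forelimb 11, 13 and 25. Levels are not compared between probe sets or between designs. Probe sets of a gene are called first, second and so on within a design, by the order of their identifiers, which the plots list from the top. The suffix _s_at or _x_at marks probes that can match more than 1 transcript, so that a signal may be shared with a related sequence. It was carried by the second A-array probe set of Hmga2, the first and second A-array probe sets of Igf2bp3, and the second B-array probe sets of Igf2bp1 and Igf2bp3.

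The limb identity genes followed the labels. Tbx5, a forelimb factor, was lower in hindlimb on the A array, past the limma threshold. The hindlimb factors Pitx1, on the A array, and Tbx4, on the B array, were higher past it. Tbx4 on the A array had a difference of 1.33 (adjusted p = 0.0514) and Hoxc10 on the B array one of 1.08 (adjusted p = 0.555). Of 5 autopod mesenchyme markers all 5 were tested on the A array, with a summed signal of 8047 to 10410 in hindlimb and 9567 to 10339 in forelimb. The pluripotent and germ cell markers Pou5f1, Nanog and Ddx4 were below the filter, and Dppa3, the other of the 4, had 54.7 to 140.1 in hindlimb and 65.0 to 140.4 in forelimb. Cycling-cell markers summed to 18677 to 19850 in hindlimb and 17982 to 19838 in forelimb on the A array.

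Hmga2 was the member that stood apart between the limbs. All 4 of its probe sets, on both designs, were higher in every hindlimb sample than in every forelimb sample, by 39.1% to 68.3% on the log scale. None passed the limma threshold of 0.05 after adjustment over all probe sets of its design. With consecutive sample numbers as a replicate block the second A-array probe set did (limma adjusted p = 0.0325). No other alternative fit put an Hmga2 probe set past the threshold, and without forelimb 25 the second one had a limma adjusted p of 0.545. In whole autopods a larger share of Hmga2-expressing cells and more RNA per cell cannot be told apart.

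On the A array, the second Hmga2 probe set had signals of 7956, 8959 and 6604 in hindlimb and 4824, 5318 and 3815 in forelimb. The lowest hindlimb sample, 26, lay above the highest forelimb sample, 13. The means were 7839 ± 1182 in hindlimb and 4652 ± 766 in forelimb (SD, n = 3 each), a difference of 0.75 ± 0.14 (SE, limma adjusted p = 0.189). The first probe set had 4532, 4897 and 5385 in hindlimb and 3865, 3570 and 3197 in forelimb. Here the limbs were parted by the gap between hindlimb 12 and forelimb 11. The means were 4938 ± 428 in hindlimb and 3544 ± 335 in forelimb, a difference of 0.48 ± 0.11 (adjusted p = 0.395).

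The third A-array probe set had 2843, 2367 and 3230 in hindlimb and 2013, 1894 and 2030 in forelimb. The forelimb values lay close together and hindlimb 14 was the nearest to them. The means were 2813 ± 432 in hindlimb and 1979 ± 74.3 in forelimb, a difference of 0.49 ± 0.13 (limma adjusted p = 0.496). On the B array, the single probe set had 1201, 973 and 1073 in hindlimb and 664, 839 and 585 in forelimb. Hindlimb 14 and forelimb 13 were the closest pair across the limbs on that array, with means of 1083 ± 114 in hindlimb and 696 ± 130 in forelimb. The difference was 0.63 ± 0.17 (limma adjusted p = 0.775).

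**Figure D1:**
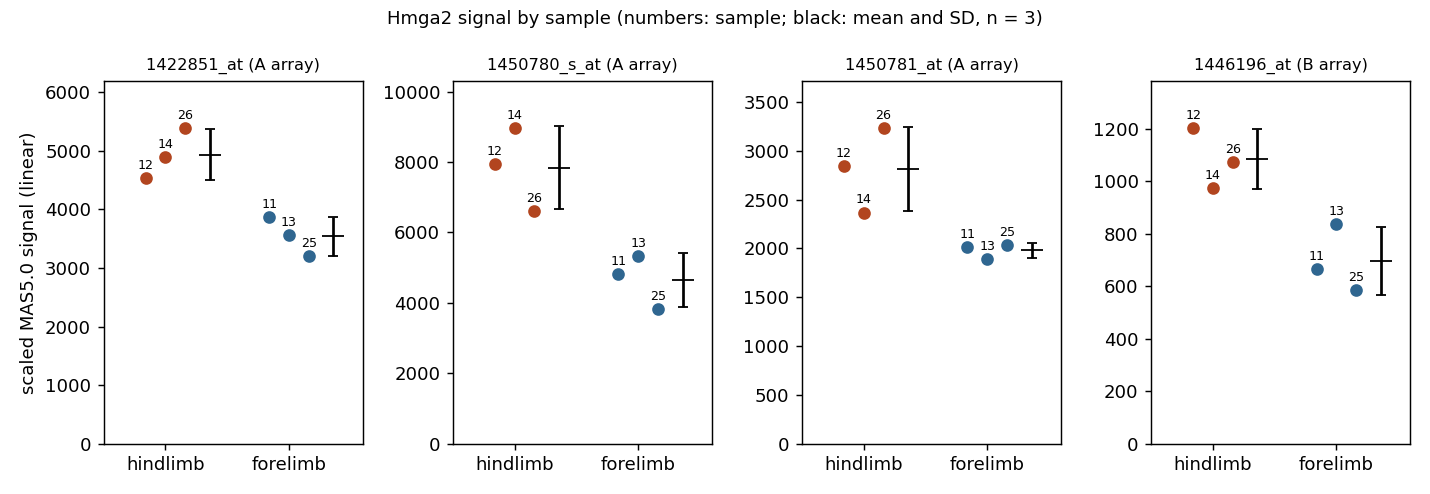
Scaled MAS5.0 signal (linear axis from 0) of the 4 Hmga2 probe sets in each sample, hindlimb left and forelimb right; numbers name the samples and black bars give mean and SD (n = 3). In each panel all 3 hindlimb points lie above all 3 forelimb points.

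Across the whole A array 0.0326% of tested probe sets passed the threshold (5 of 15338), and across the whole B array 0.0117% did (2 of 17145). Of the members 0 of 13 A-array probe sets passed, and 0 of 6 on the B array. At an unadjusted limma p under 0.05 there were 3 among A-array members and 850 among all tested there, and 1 among B-array members and 949 among all tested there. These 4 were the Hmga2 probe sets, which ranked 22, 46 and 84 by p among A-array probe sets and 76 among those of the B array. Hindlimb above forelimb with no overlap was found for 4.94% of all tested A-array probe sets and 4.81% of those of the B array. Among members it was found for 3 of 13 and 1 of 6, again the Hmga2 probe sets.

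In a count added after Hmga2 had been seen, 1195 genes had at least 3 tested A-array probe sets. In 3 of them, 0.251%, every such probe set had hindlimb above forelimb without overlap. These were Hmga2, Cbln1, a secreted synaptic organiser, and Mcm7, a subunit of the replicative helicase. The smallest adjusted p among their probe sets by limma was 0.189 for Hmga2, 0.395 for Cbln1 and 0.911 for Mcm7. The count follows the pattern already seen in Hmga2, so Hmga2 was bound to be in it. Probe sets of a gene share the same samples and are not independent, so the share is a description.

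Other measures also differed between the limbs on the A array. The log2 ratio of 3' to 5' Gapdh signal, a measure of RNA integrity, was -0.30 to -0.26 in hindlimb and -0.24 to -0.08 in forelimb, without overlap. The same ratio for Actb overlapped, at 0.22 to 0.27 in hindlimb and 0.12 to 0.26 in forelimb, as did Gapdh on the B array. Summed signals of 5 surface ectoderm markers were 2619 to 3133 in hindlimb and 3410 to 4585 in forelimb, and of 3 cartilage markers 2293 to 3289 in hindlimb and 3987 to 4644 in forelimb. Erythroid markers summed to 30929 to 33844 in hindlimb and 27418 to 30039 in forelimb. Endothelial markers summed to 1021 to 1131 in hindlimb and 1161 to 1241 in forelimb, and macrophage markers to 885 to 990 in hindlimb and 1004 to 1062 in forelimb. Taken singly, every endothelial and macrophage marker overlapped between the limbs. Muscle markers overlapped as a sum, with 472 to 622 in hindlimb and 591 to 672 in forelimb. So did Schwann and nerve markers, with 355 to 400 in hindlimb and 355 to 376 in forelimb. At the brightest probe set, Myod1, Des, Sox10 and Elavl4 overlapped. Myog was higher in forelimb, with 97.5 to 162.5 in hindlimb and 163.5 to 193.4 in forelimb. At the brightest probe set of each gene, Krt5, Krt14, Krt15, Col2a1 and Acan were also higher in forelimb without overlap, and Hbb-y in hindlimb. Epcam, Trp63, Sox9, Hbb-bh1 and Hba-x overlapped. Other probe sets of these genes did not all follow. Another Krt14 probe set was higher in forelimb (-0.66) and another in hindlimb (0.08), each without overlap. The other Hbb-y probe sets overlapped, with differences of 0.06 and -0.05. The part of these measures in the Hmga2 difference was not tested.

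The promoter of Hmga2 is shown because Hmga2 was the one gene, among those tested, whose probe sets parted the limbs. The RefSeq window runs from 250 bases before to 50 bases after the gene start on GRCm38.p6, and capitals mark the reverse complement of the GC box.
Hmga2 promoter window, chr10:120476420-120476719, strand -: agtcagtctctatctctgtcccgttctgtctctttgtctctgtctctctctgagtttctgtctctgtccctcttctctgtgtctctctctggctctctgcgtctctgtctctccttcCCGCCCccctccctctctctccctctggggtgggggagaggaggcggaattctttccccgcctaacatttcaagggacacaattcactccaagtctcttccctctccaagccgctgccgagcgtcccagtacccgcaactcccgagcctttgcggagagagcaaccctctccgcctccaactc
The window holds 57.7% G and C and 12 CpG, where the median of all 32851 promoter windows is 52.7% and 7. A script searched both strands for 5 motifs. GGGCGG, the GC box, occurred once, as it or its complement does in 35.7% of all windows. The TATA box TATAAA was not in the window and is in 13.6% of all windows. The same held for CACGTG, the E-box of Myc proteins, which is in 7.15%. The letters TCACACC, part of a T-box site, were also not there and are in 3.98%. TAATCC, the core of a Pitx site, was likewise not there and is in 7.06%. A match describes letters and not binding.

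Hmga2-ps1, annotated as a pseudogene of Hmga2, has its own B-array probe set and is no member. That probe set had 16.4, 213.5 and 123.6 in hindlimb and 90.0, 115.0 and 9.3 in forelimb. The limbs overlapped, and the difference was 0.44 ± 0.72 (limma adjusted p = 0.959). Signal from sequence shared by gene and pseudogene cannot be told apart here.

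The Lin28 genes, which code for the let-7 blocking RNA-binding proteins, were at low signal. Lin28a had 8.6 to 60.7 in hindlimb and 29.1 to 57.4 in forelimb over its 2 A-array probe sets, and neither reached the filter. Lin28b on the B array had 52.8, 50.0 and 74.3 in hindlimb and 13.6, 2.1 and 15.7 in forelimb. The limbs did not overlap there, but every value was under the filter of 100 and it was not tested. Trim71, a ubiquitin ligase and RNA-binding protein that is a classic let-7 target, had 435.7, 292.1 and 317.8 in hindlimb and 395.0, 161.4 and 382.1 in forelimb at its first probe set. The limbs overlapped, with forelimb 13 the lowest of the 6 samples, and the difference was 0.21 ± 0.32 (limma adjusted p = 0.957). Its second probe set had 62.8, 127.1 and 201.4 in hindlimb and 65.7, 64.3 and 34.3 in forelimb and was not tested.

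The Igf2bp proteins bind and stabilise messages, among them that of the fetal growth factor Igf2. Igf2bp1 had 4 tested probe sets, and all overlapped between the limbs. On the A array the first had 263.6, 362.6 and 514.4 in hindlimb and 364.7, 453.0 and 465.9 in forelimb, a difference of -0.20 ± 0.21 (limma adjusted p = 0.978). The second had 214.5, 400.7 and 321.3 in hindlimb and 225.6, 421.9 and 277.2 in forelimb, a difference of 0.02 ± 0.24. Hindlimb 12 was lowest for both.

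On the B array the first Igf2bp1 probe set had 3422, 4015 and 4737 in hindlimb and 2623, 3851 and 4200 in forelimb, a difference of 0.20 ± 0.18 (limma adjusted p = 0.930). Without forelimb 11 that difference was 0.0004, and without hindlimb 26 it was 0.087. The second had 3455, 1543 and 4564 in hindlimb and 2229, 4656 and 3400 in forelimb, a difference of -0.18 ± 0.35. The 2 gave opposite signs, and the second spread widely, with hindlimb 14 the lowest.

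Igf2bp3 had 6 tested probe sets, with differences from -0.04 to 0.21 and limma adjusted p from 0.944 to 0.999. On the B array the first had 4302, 4971 and 5117 in hindlimb and 4225, 4736 and 4368 in forelimb, a difference of 0.11 ± 0.12. The second had 4349, 4312 and 4807 in hindlimb and 3890, 4604 and 4728 in forelimb, a difference of 0.03 ± 0.12. Both overlapped, and in each the lowest value was forelimb 11.

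The A-array probe sets of Igf2bp3 also overlapped between the limbs. The first had 1381, 1768 and 1830 in hindlimb and 1463, 1784 and 1666 in forelimb, a difference of 0.01 ± 0.14. At the second the signals were 1045, 1163 and 1492 in hindlimb and 1206, 1373 and 1185 in forelimb, a difference of -0.04 ± 0.15. The third and the fourth ranged over 164.1 to 340.2 in hindlimb and 166.8 to 255.6 in forelimb. Their differences were 0.04 ± 0.24 and 0.21 ± 0.20.

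Mycn, a growth-promoting transcription factor needed in limb bud mesenchyme, had 934, 1491 and 1213 in hindlimb and 945, 1155 and 1135 in forelimb at its first probe set, a difference of 0.15 ± 0.17 (limma adjusted p = 0.981). Hindlimb 12 and forelimb 11 were the lowest, and hindlimb 14 the highest. At the second it had 78.1, 159.4 and 149.7 in hindlimb and 149.1, 135.8 and 171.2 in forelimb, a difference of -0.23 ± 0.23. The probe sets gave opposite signs and both overlapped. The third had 183.2, 265.5 and 26.6 in hindlimb and 32.4, 30.0 and 36.7 in forelimb. It passed 100 in hindlimb 12 and 14 alone and was not tested.

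Dnmt3b, a de novo DNA methyltransferase, had 557, 843 and 605 in hindlimb and 388, 617 and 525 in forelimb at its second probe set. The difference was 0.37 ± 0.20 (limma adjusted p = 0.940), and it was 0.20 without forelimb 11 and 0.20 without hindlimb 14. Forelimb 11 was the lowest and hindlimb 14 the highest, and the limbs overlapped. At the first it had 261.2, 209.9 and 257.6 in hindlimb and 191.7, 252.9 and 280.2 in forelimb, a difference of 0.02 ± 0.17.

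**Figure D2:**
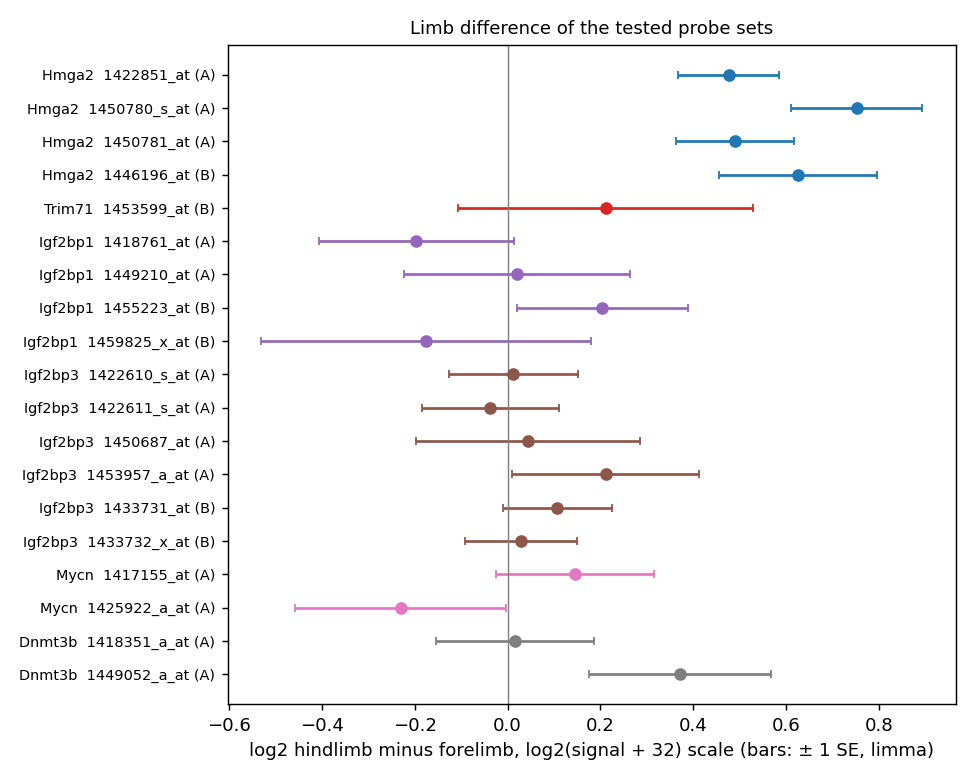
Log2 hindlimb minus forelimb of each tested probe set (points) with 1 SE from limma (bars), coloured by gene. The 4 Hmga2 points lie between 0.48 and 0.75, and the 15 others between -0.23 and 0.37.

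Outside Hmga2, 11 of 15 tested probe sets had a positive difference and 4 a negative one, and all 15 overlapped. The median difference of the 13 tested A-array members was 0.04, and that of all tested A-array probe sets was -0.01. On the B array the median of the 6 was 0.16 and that of all tested was -0.01.

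The low values of these genes gathered in certain samples. Outside Hmga2, hindlimb 12 or forelimb 11 gave the lowest value for 9 of 10 A-array probe sets, where 37.8% of all tested had their lowest there. On the B array the count was 3 of 5, where 36.8% of all tested did. On the A array hindlimb 12 was lowest for 6 of them and forelimb 11 for 3. On the B array all 3 were lowest in forelimb 11, and hindlimb 12 was lowest for 0. This was noticed in the data. Several of these probe sets are of the same gene and are not independent, so the counts are a description. The numbers 11 and 12 are consecutive, and the labels do not say whether samples of consecutive numbers share an embryo.

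**Figure D3:**
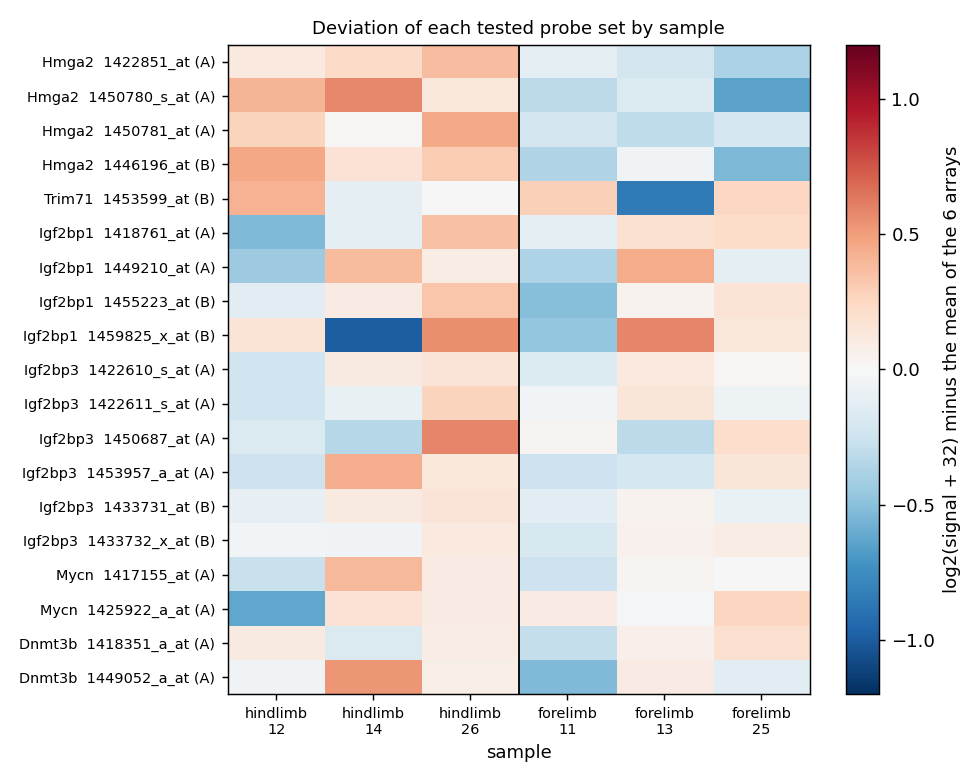
Log2(signal + 32) of each tested probe set (rows) in each sample (columns, hindlimb left) minus its mean over the 6 arrays; red is above and blue below the mean. Hmga2 lies above its mean in every hindlimb sample and below it in every forelimb sample, and the hindlimb 12 and forelimb 11 columns hold most of the lowest values of the other genes. Hindlimb 12 is the lowest for A-array rows only.

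Probe sets of a gene were compared over the 6 samples by correlation of log2(signal + 32). Over the 23 pairs outside Hmga2, Pearson r was above 0 in all 23, from 0.022 to 0.86. Of these pairs 15 were of Igf2bp3, 6 of Igf2bp1, and 1 each of Mycn and Dnmt3b. They share probe sets and the same 6 samples, so they are not independent and their count is a description. Among all pairs of tested probe sets of 1 gene, r was above 0 in 65.7% within the A array, 57.1% within the B array and 57.9% across them. No member pair passed after adjustment over the 29 pairs by exact permutation over 720 pairings, and 1 of these 23 had an unadjusted p under 0.05. That pair, the first A-array with the first B-array probe set of Igf2bp3, had r = 0.86 (exact permutation p = 0.0264, adjusted p = 0.314) and Spearman rho = 0.886 (exact permutation p = 0.0333, adjusted p = 0.438). Without hindlimb 12 and forelimb 11 its r was 0.927. Over the 23 pairs, leaving out the 2 samples farthest from the median gave a negative r in 10. In those 10 the positive sign depended on the samples left out, which differed between pairs.

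Since Hmga2 parts the limbs, its probe sets were compared by deviations from the limb means, with no test. The 6 pairs had r from -0.774 to 0.471, positive in 5, so within a limb the probe sets did not keep 1 order of samples. The same measure ran from 0.027 to 0.818 for Igf2bp1 and from 0.087 to 0.975 for Igf2bp3, and was 0.807 for Mycn and 0.139 for Dnmt3b.

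**Figure D4:**
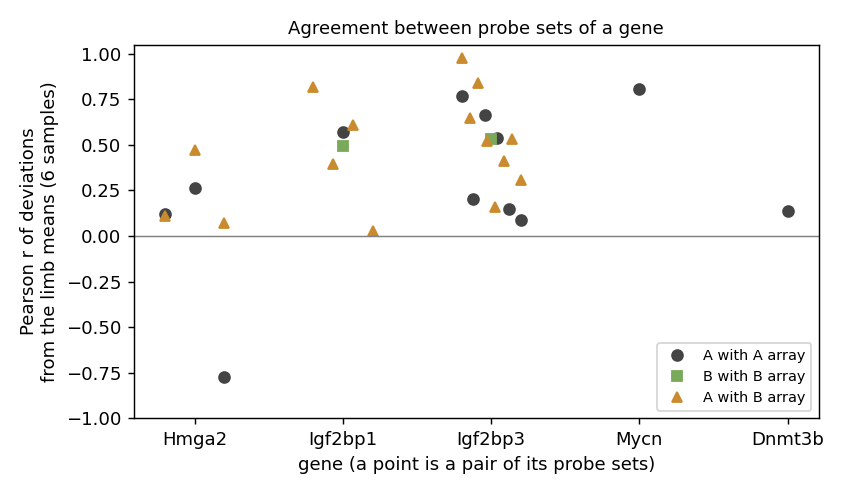
Pearson r, over 6 samples, of deviations from the limb means for each pair of tested probe sets of a gene; the marker gives the designs paired. Of the 29 pairs 28 lie above 0, and the 1 below is an Hmga2 pair at -0.774.

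Wider lists of related genes were read by counts, with the brightest tested probe set of each gene. No list gene passed the limma threshold on either design in any of the 4 lists. The let-7 maturation genes had 6 of 7 positive on the A array (median 0.09) and 5 of 10 on the B array (median 0.04), with an unadjusted p under 0.05 for 1 on each. Tarbp2, a Dicer partner in microRNA processing, had the smallest p there. Its second probe set had 102.1, 132.1 and 107.7 in hindlimb and 57.0, 74.0 and 51.8 in forelimb, a difference of 0.65 ± 0.20 (limma adjusted p = 0.633). Its first had 516.3, 557.3 and 526.0 in hindlimb and 371.3, 449.4 and 337.3 in forelimb, a difference of 0.44 ± 0.14, and neither overlapped. Xpo5, which exports precursors from the nucleus, had a B-array difference of 0.43 ± 0.15 with the limbs apart (adjusted p = 0.892), and an A-array difference of 0.23 with overlap.

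Other known let-7 targets were positive for 13 of 18 genes on the A array (median 0.10) and 8 of 12 on the B array (median 0.18). An unadjusted p under 0.05 was reached by 6 on the A array, 5 of them higher in hindlimb, and by 1 on the B array, as it was by 850 of 15338 and 949 of 17145 probe sets of all tested. The A-array gene that was lower was Thbs1, a secreted matrix protein, at -0.43 ± 0.15 (limma adjusted p = 0.719). The B-array gene was Fign, with 0.64 ± 0.23 (adjusted p = 0.894). Fign was also among the 5 on the A array, with 0.47 ± 0.17 (limma adjusted p = 0.748), and the limbs did not overlap at either probe set. Its other B-array probe set was not tested. The genes of smallest p over all their probe sets were Bach1 and Hic2. Bach1, a haem-sensing repressor, had 1457, 1294 and 1348 in hindlimb and 938, 931 and 1008 in forelimb at its first probe set, a difference of 0.50 ± 0.12 (limma adjusted p = 0.436). Its second probe set gave -0.08. Hic2, a zinc finger repressor, gave 1.57 ± 0.45 at its first B-array probe set (adjusted p = 0.775), where the lowest hindlimb sample had 175.0 and the highest forelimb sample 175.7, and 0.26 and 0.06 on its others.

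The fetal growth genes were positive for 7 of 13 on the A array (median 0.04) and 1 of 3 on the B array (median -0.28), with 1 on each at an unadjusted p under 0.05. On the A array that gene was Sall4, a zinc finger factor, with a difference of 0.45 ± 0.20 and overlapping limbs (limma adjusted p = 0.898). On the B array it was E2f3, a cell cycle factor, with 0.30 ± 0.13 (adjusted p = 0.894), against an A-array difference of -0.14. The gene of smallest p over all its probe sets was Peg3, an imprinted zinc finger gene, with a difference of 0.37 ± 0.15 at its second probe set (limma adjusted p = 0.828) and of 0.21 and 0.20 at its others. The DNA methylation enzymes were positive for 1 of 4 on the A array (median -0.11) and 3 of 4 on the B array (median 0.06), with 0 at an unadjusted p under 0.05 by the brightest probe set. Dnmt3a, the partner de novo enzyme of Dnmt3b, had 5 A-array probe sets from -0.14 to 0.41, and Dnmt1, the maintenance enzyme, had 3 over both designs from -0.09 to 0.26.

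**Figure D5:**
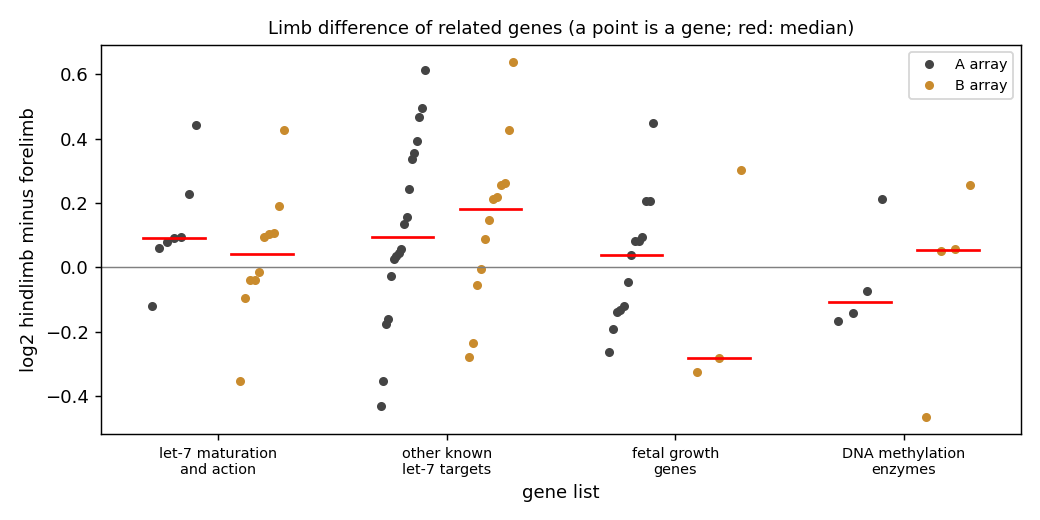
Log2 hindlimb minus forelimb for the genes of 4 lists, grey for the A array and orange for the B array, with the median in red; a point is the brightest tested probe set of a gene. The medians lie between -0.28 and 0.18.

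Of 14098 named A-array probe sets, 36 followed the brightest Hmga2 probe set over the 6 arrays with r of at least 0.95. The most alike were Phip, a chromatin reader, with r = 0.9901, Cbr1, a carbonyl reductase, with r = 0.9899, and Rpa1, a single-strand DNA-binding protein, with r = 0.9864. Their limb differences were 0.29, 0.23 and 0.22, and the values are given as a description over 6 samples. The Hmga2 probe set used, the second, had r of only 0.619 to 0.886 with the other Hmga2 probe sets. The likeness is therefore stated for that probe set only, and likeness to the other Hmga2 probe sets is not given here. How many of the 14098 would reach 0.95 by chance was not estimated.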

How the data were processed

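RNA of 3 hindlimb and 3 forelimb E12.5 autopod samples was hybridised to A and B arrays, 12 in all. Per the labels, the deposited files hold linear MAS5.0 signals, which are intensities, though the A-array label of forelimb 11 lacks that note. The authors had scaled them to a trimmed mean of 350.1 on the A arrays and 70.0 on the B arrays. Here each array was scaled to a 2% trimmed mean of 500 (factors 1.43 and 7.14). Over 100 probe sets on both designs, the median ratio of scaled A to scaled B signal was 0.312, which makes the filter less strict for the B design. Of the software settings nothing further is stated in the labels.

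Symbols came from the platform annotation, updated through a RefSeq gene table. A single symbol was found for 20393 A-array and 14674 B-array probe sets; 691 and 245 had several, and 1606 and 7656 had no symbol. The limb comparison used R 4.3.3 and limma 3.58.1, with a pseudocount of 32, lmFit and a trended eBayes; p-values are two-sided and Benjamini-Hochberg adjusted over all probe sets of a design. Precision is limited by the number of arrays. Plots used Python 3.11.15 with matplotlib 3.10.9.

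Every member probe set was named, with the 2 genes of smallest p from each of 4 lists and the 3 probe sets most like the brightest Hmga2 one. Sall4, Thbs1 and Fign fall outside that rule and were named after their values were seen. Members and lists were chosen with earlier results of these data known. Alternatives changed the pseudocount, filter, normalization, scaling, trend, weights, block and samples.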

Additional observations from a re-analysis of the deposited data

How the results depend on the processing

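All 4 Hmga2 probe sets stayed positive under all 15 alternatives. Their differences ran from 0.40 to 0.55, 0.62 to 0.87 and 0.39 to 0.61 for the A-array probe sets in order and 0.51 to 0.76 for the B-array one. Their adjusted p reached 0.975, 0.545, 0.974 and 0.975 in that order, each without forelimb 25. The A-array count of 5 became 14 with array weights, 1 with no filter and 8 with a replicate block of consecutive numbers, and 3 to 9 with a sample left out (9 without hindlimb 12, and 3 without each of the others). The B-array count of 2 became 3 with array weights, 1 with no filter, 0 without a trend (limma, 871 at an unadjusted p under 0.05) and 4 with the replicate block, and 1 to 4 with a sample left out (4 without hindlimb 12, 2 without forelimb 13, and 1 without each of the others). Under the replicate block 1 member, the second Hmga2 probe set, passed on the A array (adjusted p = 0.0325), while 0 passed on the B array. The deviations of consecutive numbers correlated at 0.208, 0.108 and 0.076 on the A array and 0.002, 0.048 and 0.039 on the B array. All are positive, and no values of other sample pairs are set beside them, so they do not decide whether the numbers pair the samples. The main fit used no pairing, and the labels do not say whether consecutive numbers share an embryo. Of 284 member values under alternatives 26 turned sign, none of them of Hmga2. With array weights the second A-array Igf2bp1 probe set gave -0.0021, the second A-array Igf2bp3 one 0.0452 and the first Dnmt3b one -0.0285, and with quantile normalization the second B-array Igf2bp3 one gave -0.0501. With a sample left out, Igf2bp1 ran from -0.42 to 0.0212 and -0.16 to 0.25 (first and second A-array) and -0.50 to 0.27 (second B-array). Igf2bp3 ran from -0.0649 to 0.14, -0.18 to 0.0718 and -0.24 to 0.23 (A-array, in order) and -0.057 to 0.0827 (second B-array). Mycn ran from -0.0128 to 0.32 (first) and -0.38 to 0.0233 (second), the first Dnmt3b probe set from -0.12 to 0.12 and Trim71 from -0.16 to 0.41. Of the 29 probe set pairs, 29 had a positive correlation with a pseudocount of 1, 28 after quantile normalization, 26 by Spearman rho and 28 by deviations from limb means, an alternative chosen after seeing the data. Leaving out 1 of 3 samples leaves 2 in a limb. The causes of these changes were not tested.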
